A study of Mus musculus with 10 samples.

Results

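Hmgcs1, Idi1, Fdps, Fdft1, Sqle and Lss encode 6 enzymes of the cholesterol synthesis pathway, and their transcripts were followed in mouse hepatocytes under normoxia and hypoxia. Among 8252 gene symbols on the array, every probe set whose platform gene symbol is one of these 6 was taken, whatever its values, which gave 9 of the 12488 probe sets: 4 for Fdps and 1 for each of the other genes. Of the 9, 7 passed the filter on dim probe sets and were tested, at least 1 for each gene. All 6 are synthesis genes, so that cholesterol uptake is described here only through a separate list of uptake and transport genes. None of the 7 passed the test in any of 4 comparisons. Idi1 read lower on all 6 hypoxic arrays than on all 4 normoxic ones, Hmgcs1 and Idi1 were highest in untreated normoxic samples, and Sqle and Fdft1 were lowest in adeno-treated normoxic samples. How many of all probe sets show these orders of arrays was not counted, so that they are not shown to be particular to these genes.

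The RNA came from mouse hepatocytes, with 10 samples on 10 arrays. The groups were 3 samples labelled hypoxic and HIF-1alpha null, 3 hypoxic wild-type samples treated with adeno, 2 normoxic adeno-treated samples and 2 normoxic untreated samples. HIF-1alpha forms, with its partner ARNT, a factor that activates genes when oxygen is scarce. The nature of the adeno treatment, whether the null samples also received it, how HIF-1alpha was removed, the genotype and strain of the normoxic samples, the age of the animals, and the oxygen level and duration of the hypoxia have no entry in the labels. There is no normoxic null group among the samples, so that genotype can be compared only under hypoxia. Nor is it stated that the arrays of a group come from separate animals or cultures, so that the p-values below measure only the spread between these samples, which may be technical.

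The pathway begins with acetyl-CoA and runs through mevalonate, the isoprenoid diphosphates and squalene to lanosterol and then cholesterol. Its genes are known targets of the sterol regulatory element-binding proteins (SREBPs), which are released from the endoplasmic reticulum when membrane sterol is low and then act together on most steps. The liver is a main site of this synthesis, and several of the later steps, among them squalene epoxidation, use molecular oxygen.

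Promoter sequence was at hand for 3 of the 6 genes and is shown because these genes are known as a jointly regulated set. The bases before the annotated start of each gene, 250 for each, are from RefSeq on GRCm38.p6, plus strand, at chr13:119690101-119690350 for Hmgcs1, chr13:8885356-8885605 for Idi1 and chr10:76531355-76531604 for Lss. Capitals mark matches on either strand to TCACNCCAC, a form of the sterol regulatory element, and to CCAAT, the box bound by NF-Y, whose reverse complement reads ATTGG.
Hmgcs1: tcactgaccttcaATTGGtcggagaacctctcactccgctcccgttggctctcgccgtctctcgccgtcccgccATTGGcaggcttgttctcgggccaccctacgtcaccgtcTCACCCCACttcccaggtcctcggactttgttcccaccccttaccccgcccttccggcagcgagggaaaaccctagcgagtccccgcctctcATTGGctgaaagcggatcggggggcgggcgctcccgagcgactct
Idi1: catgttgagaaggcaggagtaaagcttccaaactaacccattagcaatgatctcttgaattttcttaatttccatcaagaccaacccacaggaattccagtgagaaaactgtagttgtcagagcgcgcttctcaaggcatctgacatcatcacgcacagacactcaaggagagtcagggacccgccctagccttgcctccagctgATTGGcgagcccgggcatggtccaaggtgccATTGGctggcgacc
Lss: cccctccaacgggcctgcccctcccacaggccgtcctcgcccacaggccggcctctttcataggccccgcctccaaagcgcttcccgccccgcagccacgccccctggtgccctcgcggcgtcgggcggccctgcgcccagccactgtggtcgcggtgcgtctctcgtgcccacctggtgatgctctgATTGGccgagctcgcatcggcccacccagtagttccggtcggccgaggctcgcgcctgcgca
The single match to TCACNCCAC lay in Hmgcs1, between 137 and 129 bases before the start, and this motif was found in 1.05% of 32851 promoters of the same length. CCAAT boxes numbered 3 in Hmgcs1, 2 in Idi1 and 1 in Lss, against at least 1 in 33.8% of all promoters. The hypoxia core ACGTG, read on both strands, had no match in these 3 windows and a match in 16.6% of all promoters. GGGCGG, the GC box, had 2, 1 and 2 matches in Hmgcs1, Idi1 and Lss, against a share of 32.7%. In these windows no match of one motif overlapped a match of another. These are matches of letters, not shown to be bound, and a window without a match says nothing of the factor.

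Hif1a, the targeted gene, did not read lower on the arrays labelled HIF-1alpha null. Its first probe set read 1647.1, 1010.5 and 850 on those arrays, against 961.8, 703.2 and 711.2 on the hypoxic wild-type arrays, and the second averaged 1247 ± 400 against 837 ± 224 (SD, n = 3 each). The log2 differences of 0.52 and 0.56 did not pass in limma (adjusted p = 0.999 for both). Where these probes lie relative to any deleted part is not given, so that they may check nothing, and every comparison with that group below is between arrays by their label. Several control and marker readings differed with the sample number on the hypoxic arrays. The 18S ribosomal control read log2 12.18 on the number 3 array labelled null and 12.33 on the number 3 wild-type array, against 5.98 to 10.25 on all other arrays, and the summed intensity of 10 stellate cell and fibroblast markers ran from 5201 on a number 3 array to 17202 on a number 1 array. Hepatocyte markers were bright on every array, with sums of 9 genes between 37219 and 55644. Macrophage markers summed to 706 to 1426 over 10 genes, and biliary markers to 149 to 2553 over 3 genes, again lowest on number 3. The markers of lymphocytes and endothelial cells summed to at most 350 and 250 over 5 genes each, of which 2 and 1 passed the filter on dim probe sets.

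Values below are the deposited scaled intensities, array by array in the order of the sample numbers. Tests are limma fits on log2(value + 4.7) over 7453 probe sets, with Benjamini-Hochberg adjustment and a threshold of 0.05. The labels number the samples 1 to 3 but do not say that equal numbers share an animal, preparation or batch. A fit with the number as a block stands beside a result that it changes. Calls made only with the block rest on treating equal numbers as matched. Levels of different probe sets are not set against each other.

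**Figure D1:**
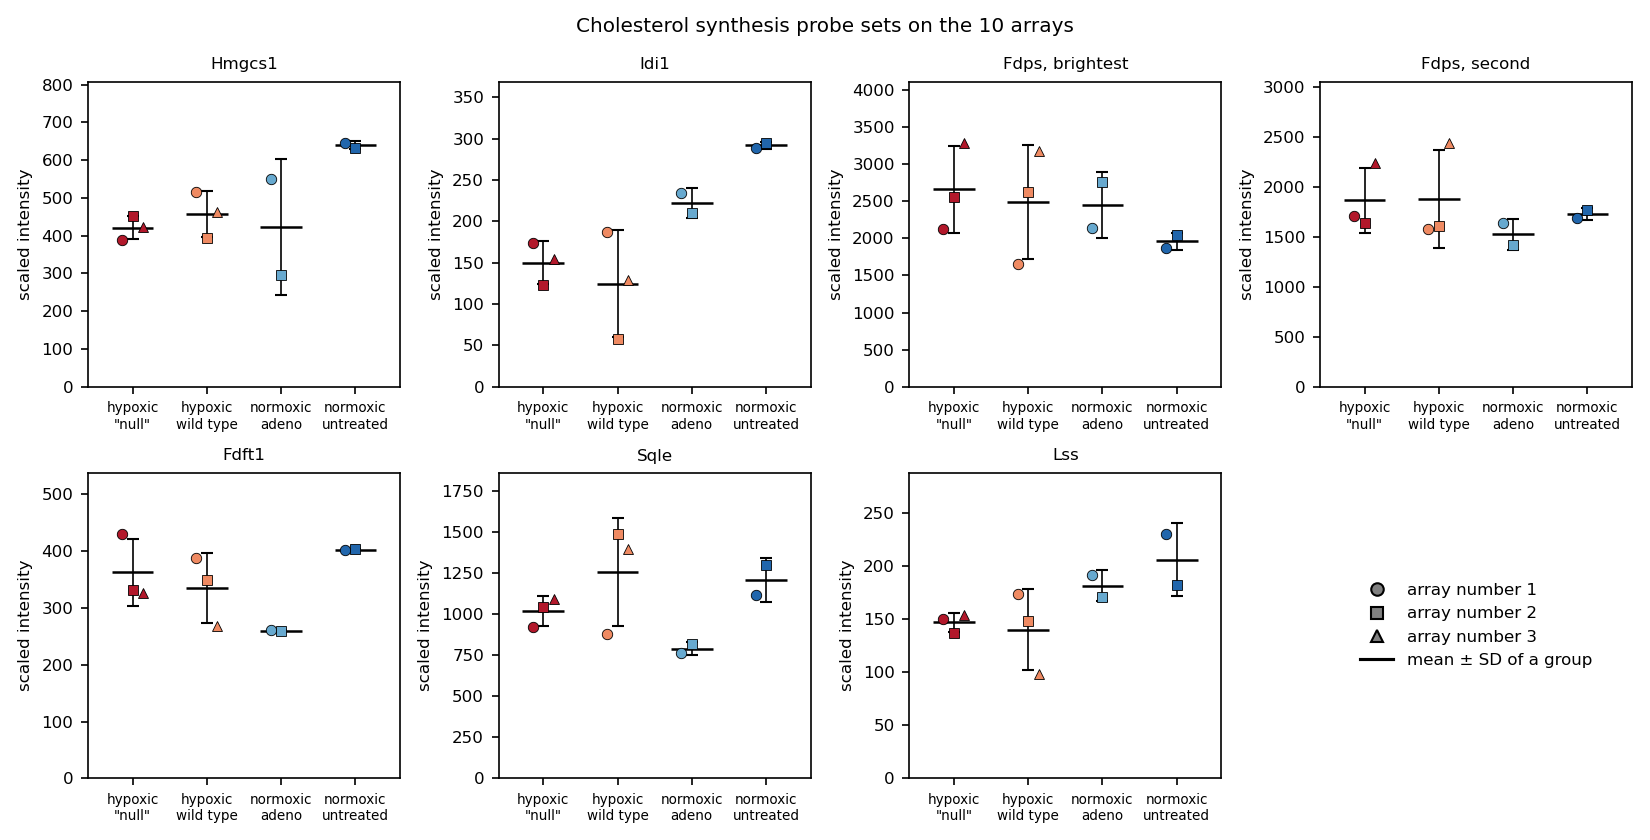
Scaled intensity of the 7 tested probe sets on each array (y axes, linear, from 0), by group (x axis, hypoxic arrays labelled null, hypoxic wild type, normoxic adeno-treated and normoxic untreated), with the label null in quotation marks, symbols for the sample number and bars for mean ± SD. Hmgcs1 and Idi1 stood highest in the untreated group, Sqle and Fdft1 stood lowest in the adeno-treated group, and Fdps was highest on the number 3 arrays of both hypoxic groups.

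Hmgcs1 makes HMG-CoA, the substrate of the rate-limiting reductase. It read 389.8, 451.3 and 423.7 on the hypoxic arrays labelled null and 515.5, 393 and 461.9 on the hypoxic wild-type arrays. It read 549.7 and 295.5 on the normoxic adeno-treated arrays and 646.5 and 632.3 on the normoxic untreated arrays. Both untreated values lay above all 8 others, and the 2 adeno-treated arrays bracketed all 6 hypoxic ones. In order of the group means Hmgcs1 ran from the group labelled null through adeno-treated and wild type to untreated, and the first 3 of these overlapped.

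Idi1 interconverts the isoprenoid building blocks isopentenyl and dimethylallyl diphosphate. It read 173.4, 122.8 and 154 on the hypoxic arrays labelled null, and 186.6, 58 and 129.2 on the hypoxic wild-type arrays. On the normoxic arrays it read 234.7 and 209.7 with adeno and 289.1 and 295.1 without treatment. All 6 hypoxic arrays lay below all 4 normoxic ones, and the hypoxic groups overlapped. The means ran from wild type through the group labelled null and adeno-treated to untreated, and only the first pair overlapped. Among the tested probe sets of the 6 genes Idi1 had the widest range, with its highest array 5.09 times its lowest, and the low value of 58 came from the hypoxic wild-type sample of number 2.

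Fdps makes farnesyl diphosphate, the last common precursor of sterols and of prenyl groups on proteins. Its brightest probe set read 2129.8, 2557.2 and 3289.8 on the hypoxic arrays labelled null and 1653.8, 2629 and 3175.9 on the hypoxic wild-type arrays. It read 2140.1 and 2764.5 on the adeno-treated and 1872.3 and 2043 on the untreated arrays. The number 3 arrays were highest and the number 1 arrays lowest in both hypoxic groups, and these 2 groups overlapped over most of their range. The second brightest, whose suffix marks possible hybridisation with related transcripts, read 1709.5, 1640.5 and 2242 on the arrays labelled null and 1575.6, 1612.6 and 2442.6 on the wild-type arrays, with number 3 again the highest in both groups. It read 1633.5 and 1413.3 on the adeno-treated and 1688.1 and 1768 on the untreated arrays. The 2 probe sets ordered the groups differently, with untreated lowest on the brightest and adeno-treated lowest on the second, and correlated at r = 0.55 over the 10 arrays, a description only.

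Both remaining Fdps probe sets were below the filter and were not tested. The dimmer lay between 3.3 and 23.1 on all arrays. The other read 42.3, 59.6 and 61.2 on the hypoxic arrays labelled null, against 43.6, 18.3 and 17.1 on the hypoxic wild-type arrays, 21.1 and 21.4 on the adeno-treated and 25.3 and 48.2 on the untreated arrays. Its groups labelled null and wild type overlapped.

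Fdft1, squalene synthase, commits farnesyl diphosphate to sterols. It read 430.2, 331.3 and 326.1 on the hypoxic arrays labelled null, and 388.8, 349.3 and 268 on the hypoxic wild-type arrays. It read 261.2 and 258.6 on the adeno-treated and 401.6 and 403.2 on the untreated arrays. The adeno-treated arrays were below all 8 others, by a narrow margin from the number 3 wild-type array, and the hypoxic arrays lay below both untreated ones except for the highest array labelled null. Its group means ran from adeno-treated through wild type and the group labelled null to untreated, and the last 3 overlapped with their neighbours.

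Sqle, squalene epoxidase, puts molecular oxygen into squalene. It read 918.5, 1041.5 and 1092.1 on the hypoxic arrays labelled null and 878.9, 1485.8 and 1395.9 on the hypoxic wild-type arrays. It read 763.8 and 815.5 on the adeno-treated and 1113.2 and 1299.6 on the untreated arrays. The adeno-treated arrays were again below all 8 others, and the wild-type group spanned the whole range of the group labelled null. Its group means ran from adeno-treated through the group labelled null and untreated to wild type, and of the neighbours in that order only the last pair overlapped.

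Lss, lanosterol synthase, closes the rings of epoxidised squalene to give the first sterol. It read 150.2, 136.8 and 154.5 on the hypoxic arrays labelled null, 174.2, 148.4 and 98.5 on the hypoxic wild-type arrays, 191.9 and 171.4 on the adeno-treated and 230.4 and 182.1 on the untreated arrays. Its group means ran from wild type through the group labelled null and adeno-treated to untreated, and each neighbouring pair but that of the null label and adeno overlapped.

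With the number 3 hypoxic arrays set against the number 1 arrays, the 6 genes did not move one way. The log2 difference of the brightest Fdps probe set was 0.63 on the arrays labelled null and 0.94 on the wild-type arrays, and that of Sqle was 0.25 and 0.66. Fdft1 went the other way, at -0.39 and -0.53, as did Idi1, at -0.17 and -0.51. Lss (0.04 and -0.79) and Hmgcs1 (0.12 and -0.16) differed in sign between the groups. Over the same arrays the summed stellate cell and fibroblast markers were 5201 on number 3 and 16133 on number 1 with the null label, and 5669 and 17202 in wild type, and the part of these markers or of 18S in the values of the 6 genes was not tested. In such bulk samples fewer cells of a type and less RNA per cell cannot be told apart.

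**Figure D2:**
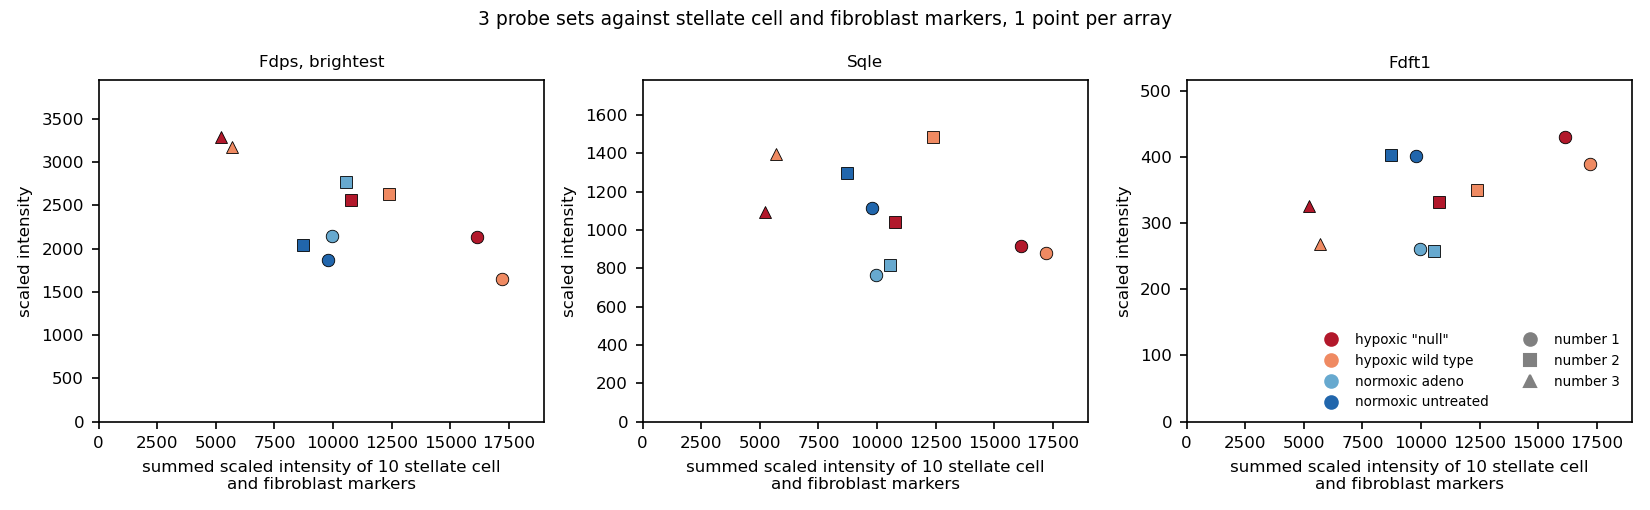
Scaled intensity of Fdps, Sqle and Fdft1 (y axes, linear, from 0) against the summed scaled intensity of 10 stellate cell and fibroblast markers (x axis), 1 point per array, coloured by group and shaped by sample number. The number 3 arrays of both hypoxic groups lie at sums of 5201 and 5669 and hold the highest Fdps values, and the number 1 arrays lie at 16133 and 17202.

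The first comparison set hypoxia against normoxia in adeno-treated samples, with the genotype and strain of the normoxic ones not given. In hypoxic wild-type against normoxic adeno-treated samples none of the 7 probe sets passed. The largest differences were a lower Idi1 and a higher Sqle, neither of which held up against the adjustment over all probe sets. Idi1 averaged 125 ± 64.4 (SD, n = 3) in hypoxic wild type and 222 ± 17.7 (SD, n = 2) in the adeno-treated group, a log2 change of -0.95 (SE 0.39, 95% interval -1.81 to -0.09, adjusted p = 0.561 in limma). Sqle averaged 1254 ± 328 (SD, n = 3) against 790 ± 36.6 (SD, n = 2), a log2 change of 0.63 (SE 0.23, interval 0.12 to 1.13, adjusted p = 0.487 in limma). The number block left both outside the threshold, at adjusted p = 0.122 for Idi1 and 0.103 for Sqle. Leaving out the hypoxic wild-type sample of number 1 as well brought both inside it, with log2 -1.46 for Idi1 (adjusted p = 0.0471) and 0.77 for Sqle (adjusted p = 0.0404), the sole setting among those run that called any of the 7. Without the hypoxic wild-type sample of number 2 the values shrank instead, to -0.50 for Idi1 without the block and to 0.37 for Sqle with it.

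Fdft1 was at log2 0.35 (interval -0.11 to 0.80) and Lss at -0.40 (interval -0.94 to 0.15) in the same comparison. With the block Fdft1 was at 0.46, with an interval of 0.11 to 0.81 that excludes 0, and did not pass (adjusted p = 0.152 in limma). Without the block Hmgcs1 was at 0.17, and Fdps at -0.02 on its brightest probe set and 0.27 on the second. Set against all 4 normoxic arrays in place of the 2 adeno-treated ones, Idi1 stood at -1.15 (adjusted p = 0.205 in limma), Sqle at 0.32 and Fdft1 at 0.03, and Hmgcs1 changed sign to -0.16. The difference of Sqle and Fdft1 thus shrank with the choice of normoxic arrays, while that of Idi1 did not.

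Over all 7453 probe sets, 0.322% passed as higher and 0% as lower in this comparison, and with the block 1.49% and 0.738%, shares so low that 0 of 7 does not set these genes apart. The 2 groups stood apart, with no array in common range, for 3 of the 7, Sqle and Fdft1 being higher and Idi1 lower, where 11.6% of all probe sets were higher and 13.1% lower without overlap. An unadjusted p below 0.05 was reached by 2 of the 7, Idi1 and Sqle, against 7.93% of all probe sets. The median log2 change of the 7 was 0.17, beside -0.02 for all probe sets, and 4 of the 7 values were positive.

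**Figure D3:**
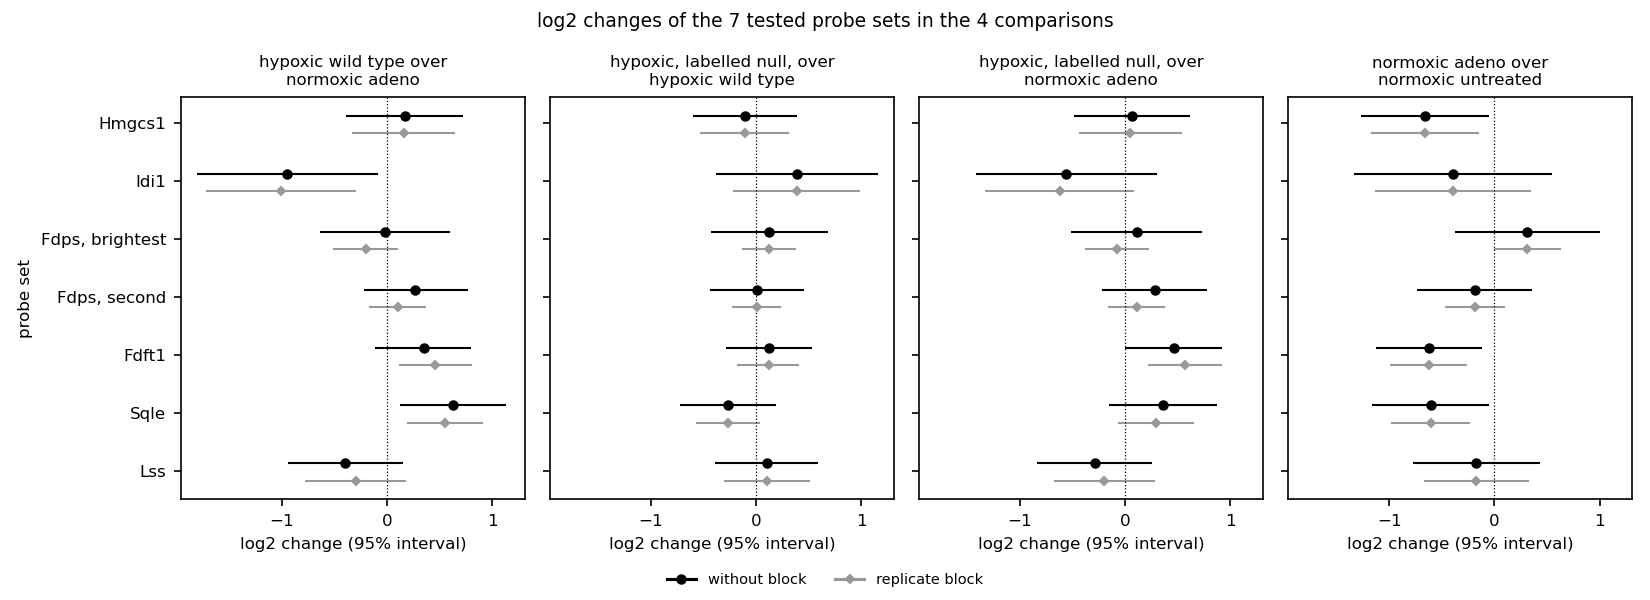
Log2 changes (x axes) of the 7 tested probe sets (rows) in the 4 comparisons, with 95% intervals from limma, without the number block (black) and with it (grey). In hypoxic wild type over normoxic adeno-treated the intervals of Idi1 (-1.81 to -0.09) and Sqle (0.12 to 1.13) without the block exclude 0. With the block that of Fdft1 (0.11 to 0.81) does so as well. In the arrays labelled null over hypoxic wild type all 7 intervals without the block include 0. In those arrays over normoxic adeno-treated that of Fdft1 without the block runs from 0 to 0.92. In normoxic adeno over untreated those of Hmgcs1 (-1.27 to -0.05), Sqle (-1.16 to -0.05) and Fdft1 (-1.12 to -0.12) without the block exclude 0.

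The second comparison set the HIF-1alpha null label against wild type, both under hypoxia. Again 0 of the 7 probe sets passed in limma (adjusted p = 0.999 for each), 0 had an unadjusted p below 0.05, and for 0 did the groups of arrays separate. Sqle averaged 1017 ± 89.3 in samples labelled null and 1254 ± 328 in wild type (SD, n = 3 each), a log2 difference of -0.27 with an interval of -0.72 to 0.19. Idi1 averaged 150 ± 25.5 against 125 ± 64.4, a difference of 0.39 with an interval of -0.38 to 1.16.

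The other intervals bound how far these genes may differ by the label. That of Fdft1 ran from -0.29 to 0.53, the narrowest of the 7, and that of the second Fdps probe set from -0.44 to 0.45. The brightest Fdps probe set lay at 0.12 (interval -0.43 to 0.68), Hmgcs1 at -0.11 (-0.60 to 0.39) and Lss at 0.10 (-0.39 to 0.59). By sample number, Sqle was lower with the null label in 2 of 3 pairs and Idi1 higher in 2 of 3, so that no gene of the 6 moved one way in all pairs. Lss changed sign to -0.16 without the number 3 arrays.

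Across the array 0% of probe sets passed as higher and 0% as lower, and with the block 0.0134% and 0.121%. Groups without overlap made up 4.04% (higher) and 2.74% (lower) of all probe sets, and an unadjusted p below 0.05 3.38%. The median of the 7 was 0.10, beside 0.02 for all probe sets, with 5 of 7 positive.

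The third comparison set the hypoxic samples labelled null against the normoxic adeno-treated ones, and shares its control arrays with the first comparison. Fdft1 had the largest difference relative to its error. It averaged 363 ± 58.7 (SD, n = 3) in samples labelled null and 260 ± 1.84 (SD, n = 2) in the adeno-treated group, a log2 change of 0.46 (SE 0.21, interval 0 to 0.92, adjusted p = 0.509 in limma, and 0.0659 with the number block), which ran from 0.33 without the number 1 array labelled null to 0.72 without the number 2 array labelled null and with the block. Idi1 was at -0.56 (interval -1.42 to 0.30), beside -0.95 in wild type, and Sqle at 0.36 (interval -0.15 to 0.87), beside 0.63 in wild type. Lss stood at -0.29 and Hmgcs1 at 0.06. Fdps was at 0.11 on its brightest probe set, which turned to -0.08 with the block, and at 0.28 on the second.

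Of all probe sets 0.349% passed as higher and 0.0805% as lower, and 2.95% and 2.83% with the block, against 0 of the 7 in either fit. The groups of arrays separated for 5 of the 7. Fdft1, Sqle and the second Fdps probe set were higher, beside 13.8% of all probe sets, and Idi1 and Lss were lower, beside 12.1%. An unadjusted p below 0.05 was found for Fdft1 alone, 1 of 7, against 9.74%. The median of the 7 was 0.11, beside 0.01 for all probe sets. With all 4 normoxic arrays as the control, Fdft1 stood at 0.15, Sqle at 0.06 and Idi1 at -0.76, and Hmgcs1 changed sign to -0.27.

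The last comparison set adeno treatment against none, both under normoxia. Of the 7 probe sets 6 read lower with adeno, and the 3 largest differences were in Hmgcs1, Fdft1 and Sqle, none of which passed. Fdft1 averaged 260 ± 1.84 with adeno and 402 ± 1.13 without (SD, n = 2 each), a log2 change of -0.62 (SE 0.23, interval -1.12 to -0.12, adjusted p = 0.521 in limma, and 0.0984 with the number block). Sqle averaged 790 ± 36.6 against 1206 ± 132, a change of -0.60 (SE 0.25, adjusted p = 0.567 in limma, and 0.111 with the block). Hmgcs1 averaged 423 ± 180 against 639 ± 10, a change of -0.66 (SE 0.27, adjusted p = 0.567 in limma, and 0.178 with the block). It stood at -1.10 without the adeno-treated array of number 1 and at -0.22 without that of number 2, and its 2 adeno-treated arrays lay further from each other than the number 1 array of that group lay from the untreated ones.

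Idi1 was at -0.39 (interval -1.33 to 0.55), the second Fdps probe set at -0.18 and Lss at -0.17. The brightest Fdps probe set was the sole one of the 7 above 0, at 0.31 (interval -0.37 to 1). The 2 Fdps probe sets thus differed in sign here.

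In this comparison 0% of probe sets passed as higher and 0% as lower, and 0.107% and 0.148% with the block. With 2 arrays against 2, groups without overlap are common: 24.6% of all probe sets were higher and 24.3% lower, against 1 and 5 of the 7. An unadjusted p below 0.05 was reached by 3 of the 7, against 8.32% of all probe sets. The median log2 change of the 7 was -0.39, beside -0.01 for all probe sets. The adeno-treated arrays are the control of the first and the third comparison and the treated group here, so that low Sqle and Fdft1 on those 2 arrays enter all 3.

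The rest of the pathway was described through 4 lists of related genes, 39 tested probe sets in all, of which 0 passed in any comparison without the block. Among 16 other synthesis genes, 11 were tested with 15 probe sets. Dhcr7, which makes cholesterol from its last precursor, had the smallest p in the first comparison. It read 103.3, 119.6 and 112.1 in hypoxic wild type, against 186 and 191.2 in the adeno-treated group, a log2 change of -0.73 (SE 0.19, adjusted p = 0.277 in limma, and 0.0542 with the block). It read 137.7, 156.8 and 191.8 with the null label, a difference from wild type of 0.51 that did not pass, and 94.4 and 96.1 in untreated samples, so that adeno against none stood at 0.95 (adjusted p = 0.498, and 0.0687 with the block). Dhcr7 was thus high on the adeno-treated arrays, on which Sqle and Fdft1 were low.

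Msmo1, which oxidises methyl groups of the sterol ring, read 250.7 and 198.8 on the adeno-treated arrays, against 348.9 and 389.2 on the untreated ones (log2 -0.71, adjusted p = 0.547 in limma). Cyp51, the lanosterol demethylase, was at -0.44 in the same comparison. Over the 15 probe sets the median was -0.24 with 4 above and 11 below 0 in adeno against untreated, beside a median of -0.01 for all probe sets. In samples labelled null against hypoxic wild type the median was 0.21, with 14 of 15 above 0, and 0 of 15 passed. For all probe sets the median was 0.02, with 4099 of 7453 above 0. The 15 probe sets stand for 11 genes, so that some genes count more than once. The single probe set below 0 was that of Ebp, a sterol isomerase.

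Of the sterol sensing list, 3 of 9 genes were tested, and Insig1, which retains the SREBP complex, was below the filter at 1.2 to 9.2. Srebf1, the gene of SREBP-1, read 481.2, 721 and 1166.7 with the null label and 520.2, 572 and 757.9 in hypoxic wild type, against 518.7 and 429.4 with adeno and 466 and 447.3 untreated. Its high values lay on the number 3 hypoxic arrays, and it was at log2 0.36 in hypoxic wild type against adeno-treated (adjusted p = 0.842 in limma) and at 0.28 by the null label. Nr1h3, the oxysterol receptor LXR alpha, read 257.6, 340.9 and 318.9 with the null label, against 442.6 and 543.8 with adeno, a log2 change of -0.68 that did not pass (adjusted p = 0.348 in limma). With the number block, which called 2.83% of all probe sets lower, it was -0.79 and passed (adjusted p = 0.0206). In hypoxic wild type it was at -0.51 (adjusted p = 0.628, and 0.0703 with the block), without overlap, as for 13.1% of all probe sets on the lower side.

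Of the uptake and transport list, 9 of 13 genes were tested with 11 probe sets. Npc1, which exports cholesterol from lysosomes, read 465.9, 310.3 and 266 with the null label, against 212.8 and 232.9 with adeno, a log2 change of 0.59 that did not pass (adjusted p = 0.542 in limma). With the block, which called 2.95% of all probe sets higher, it was 0.77 and passed (adjusted p = 0.0426). It was at 0.46 in hypoxic wild type (adjusted p = 0.745). Scarb1, the receptor for high density lipoprotein, stood at 0.30 in adeno against untreated (adjusted p = 0.731). The median of the 11 was 0.08 in hypoxic wild type against adeno-treated, 0 by the null label, 0.08 in samples labelled null against adeno-treated and -0.09 in adeno against untreated.

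Of the efflux, storage and bile acid list, 7 of 14 genes were tested with 10 probe sets. Cyp7a1, the rate-limiting enzyme of bile acid synthesis, was below the filter at 2.3 to 59.7. The block called 4 of the 10 lower in samples labelled null against adeno-treated, where it called 2.83% of all probe sets lower. Nr1h4, the bile acid receptor FXR, was at log2 -0.98 with the block (adjusted p = 0.0334 in limma) and at -0.75 without it (adjusted p = 0.529). One probe set of Cyp7b1, an oxysterol hydroxylase, was at -1.13 with the block (adjusted p = 0.0334) and at -0.96 without it (adjusted p = 0.390). By the null label it was at -0.92 and did not pass (adjusted p = 0.999, and 0.155 with the block). Its groups did not overlap there, as for 2.74% of all probe sets on the lower side. In hypoxic wild type against adeno-treated it was at -0.04. The other Cyp7b1 probe set was at -0.74 with the block in samples labelled null against adeno-treated (adjusted p = 0.101), with overlap. Both tested probe sets of Slc10a1, the bile acid importer, were called as well, but their groups of arrays overlapped. The brighter was at -0.80 with the block (adjusted p = 0.0488) and at -0.20 without it (adjusted p = 0.967), and its plain mean was 473 ± 400 (SD, n = 3) in samples labelled null, above 428 ± 111 (SD, n = 2) in the adeno-treated group. The dimmer was at -1.34 with the block (adjusted p = 0.0351) and at -0.64 without it (adjusted p = 0.882). In hypoxic wild type the brighter was at -0.92 with the block (adjusted p = 0.0492) and at -0.32 without it (adjusted p = 0.964), with overlap. The block called 0.738% of all probe sets lower there, and this call held in 3 of 10 block fits with 1 array left out. The brighter probe set ran from 152.2 on number 1 to 921.1 on number 3 with the null label. Abca1, the cholesterol exporter, read 124.1 and 137.7 with adeno, against 256.5 and 325.5 untreated on its brighter probe set (log2 -1.12, adjusted p = 0.498 in limma, and 0.0747 with the block), while its other probe set read higher with adeno on both arrays, at 56 and 62.2 against 51.2 and 51.2.

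Ebp read 332.4, 317.8 and 562.2 with the null label, against 511.8 and 634.5 with adeno, so that the groups overlapped. It was the single synthesis gene that the block called in any comparison (log2 -0.77, adjusted p = 0.0203 with the block, and -0.54, adjusted p = 0.585 without it). The block called 2.83% of all probe sets lower in samples labelled null against adeno-treated. Without the number 3 arrays and with the block, Ebp (-0.80, adjusted p = 0.0375) and Nr1h3 (-0.72, adjusted p = 0.0457) were the 2 of these probe sets still past the threshold. With the block and 1 array left out at a time, Ebp and Nr1h3 each passed in 7 of 10 fits and Npc1 in 1 of 10, and all 3 calls were lost without either adeno-treated array or without the number 2 array labelled null.

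**Figure D4:**
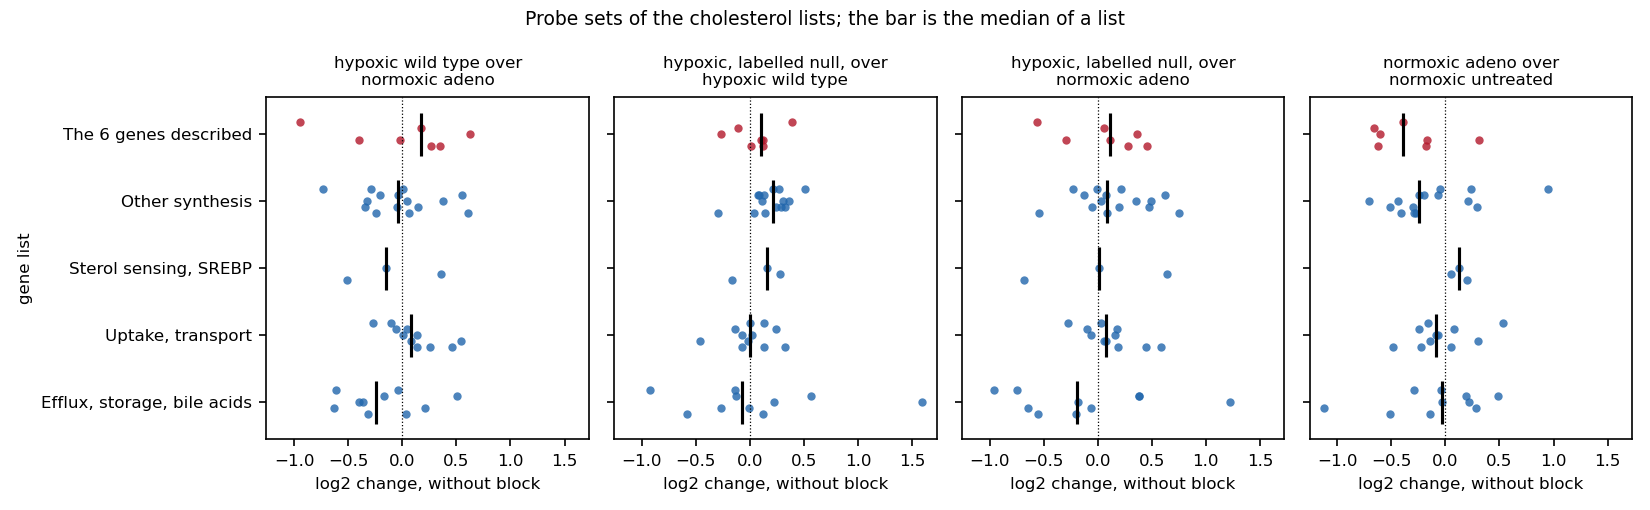
Log2 changes without the number block (x axes) of every tested probe set of the 6 genes and of the 4 lists (rows), in the 4 comparisons, with a black bar at each median. In the arrays labelled null over hypoxic wild type 14 of the 15 other synthesis probe sets (11 genes) lie above 0, beside 4099 of all 7453. In normoxic adeno over untreated 6 of the 7 probe sets of the 6 genes lie below 0, beside 3774 of all 7453.

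Although the 6 genes serve a single pathway, their levels did not move together over the 10 arrays. Of 21 pairs of tested probe sets 12 correlated positively, with a median r of 0.17 and a range from -0.67 (Lss and the brightest Fdps probe set) to 0.63 (Lss and Idi1). With each group's mean taken off, the median was -0.05, and the range ran from -0.83 (Fdft1 and the brightest Fdps) to 0.87 (Sqle and the brightest Fdps). These are descriptions over arrays that share their scaling and, in part, their sample number.

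The mean standardized level of the 6 genes, with 1 probe set each, was -0.13, -0.22 and 0.11 on the hypoxic arrays labelled null and -0.11, -0.18 and -0.23 on the hypoxic wild-type arrays, against -0.17 and -0.49 on the adeno-treated and 0.70 and 0.70 on the untreated arrays. Both untreated arrays thus stood above the other 8. The probe sets outside the 6 genes most like this mean over all 10 arrays were those of Pepd (r = 0.96), Ank (0.92), Dtd1 (0.92), Pja1 (0.90) and Rpn1 (0.90). After each group's mean was taken off they were Mcfd2 (0.96), Glce (0.96), Socs3 (0.94), Nfyc (0.94) and Ada (0.93), none of them in the first set. Each set was picked as the highest r among all tested probe sets with 1 symbol outside the 6 genes, over only 10 arrays. Such a choice favours high values, and a link to the 6 genes was not tested.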

How the data were processed

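Total RNA of 10 mouse hepatocyte samples was hybridised to 1 array each. The deposited values are intensity on a linear scale, carrying the authors' scaling (the trimmed mean computed here was 199.6 to 200 on every array, the medians 60 to 70.9). How scans became these values is not given in the sources. Precision is limited by how few arrays there are. The platform table gives 1 gene symbol to 10855 of the 12488 probe sets (10839 matched GRCm38.p6), several to 396 and none to 1237.

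Here log2(value + 4.7) was taken, 4.7 being the 10th percentile of all intensities, so that folds are on the scale of value plus 4.7. The 66 control probe sets and those under the 40th percentile of the mean log2 value were left out, leaving 7453. limma 3.58.1 in R 4.3.3 (lmFit on 4 group means, eBayes with trend, 6 residual degrees of freedom, 4 with the block) tested 4 comparisons, 2-sided, with Benjamini-Hochberg adjustment over all 7453. The fit was tested on simulated data with independent noise on each array and shifts larger than the log2 changes of the 6 genes. Differences shared by sample number were not simulated, so that this says little of smaller changes or of such differences.

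The members, lists and tests were chosen with earlier results of these data known. All probe sets of the 6 genes are named, and of each list those past the threshold in either fit, otherwise up to 4 genes of smallest p, of which the text gives a part. Hif1a was added as the targeted gene. The 5 most alike probe sets follow Pearson r. Pairing by sample number was checked through deviations from the group means: all 13 same-number pairs correlated at 0.106 to 0.678, and 24 different-number pairs at -0.518 to 0.251. Alternatives were other offsets and filters, quantile normalization, the number block, leaving out the number 3 arrays or each array in turn, and all 4 normoxic arrays as control.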

Additional observations from a re-analysis of the deposited data

How the results depend on the processing

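No probe set of the 6 genes passed the threshold under the other offsets, filters, quantile normalization, the number block, the samples without number 3 or all 4 normoxic arrays as control. The number block raised the calls over all probe sets to 111 higher and 55 lower in hypoxic wild type against normoxic adeno-treated, 1 and 9 by the null label, 220 and 211 in samples labelled null against adeno-treated, and 8 and 11 in adeno against untreated. Without filter the first comparison had 1 lower. Without the number 3 arrays it had 1 lower (73 higher and 24 lower with the block), the null label had 1 higher in either fit, the third comparison 16 and 2 (111 and 106 with the block), and the last 3 higher with the block. All 4 normoxic arrays as control gave 38 and 5 in the first and 44 and 17 in the third. The brightest Fdps probe set reversed in the first comparison to 0 (quantile normalization) and 0.14 (all normoxic arrays), and in the third to -0.08 (block) and -0.06 (without number 3). Lss reversed to -0.16 by the null label without number 3, and Hmgcs1 to -0.16 and -0.27 in the first and the third with all normoxic arrays. Leaving out 1 array at a time, in both fits, calls over all probe sets ran over 3 to 133 higher and 0 to 86 lower in the first comparison, 0 to 12 and 0 to 15 in the second, 3 to 218 and 0 to 233 in the third and 0 to 46 and 0 to 35 in the last. In the first, called probe sets of the 6 genes ran over 0 to 1 each way and their median over -0.19 to 0.35, the low end without the adeno-treated sample of number 2. The calls over all probe sets were fewest without the adeno-treated sample of number 2 (3 higher in the first, 3 higher and 0 lower in the third). With the block and 1 array left out, Nr1h4 and the dimmer Slc10a1 probe set kept their calls in the third in 4 of 10 fits, and Cyp7b1 and the brighter Slc10a1 in 3 of 10. Without a reversal, Idi1 ran over -1.46 to -0.5 and Sqle over 0.37 to 0.86 in the first, Fdft1 over 0.33 to 0.72 in the third and Hmgcs1 over -1.1 to -0.22 in the last. Log2 changes with a reversal ran in the first over -0.01 to 0.38 (Fdps, second), -0.33 to 0.25 (Fdps, brightest), -0.27 to 0.61 (Hmgcs1) and -1.1 to 0.22 (Slc10a1, brighter probe set). In the second they ran over -0.13 to 0.21 and -0.14 to 0.33 (the Fdps probe sets in the same order), -0.16 to 0.27 (Lss), -0.29 to 0.06 (Hmgcs1), -0.06 to 0.75 (Idi1) and -0.04 to 0.23 (Fdft1), in the third over 0 to 0.38 and -0.14 to 0.29 (Fdps), -0.38 to 0.5 (Hmgcs1), -0.98 to 0.42 and -1.65 to 0.11 (Slc10a1), and in the last over -0.78 to 0 (Idi1). The cause was not tested, beyond the fewer arrays or other control that an alternative uses. Quantile normalization moved no median of all probe sets by over 0.1.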
